A study of Mus musculus with 4 samples.

Results

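A set of 10 transcripts that code for tendon and matricellular proteins was followed in a comparison of mitochondria with the rest of the skeletal muscle of mice. They were taken by gene symbol from the 16472 genes of the expression table, and each of them (Sparc, Fn1, Fbn1, Postn, Thbs4, Tnmd, Comp, Tnxb, Chad and Cilp, called members here) had a row. RNA had been sequenced from 2 groups of wild-type muscle with 2 libraries each. The first group is isolated mitochondria. The study's methods, written for heart, have mitochondria treated with digitonin and RNase A before RNA was extracted, and whether muscle was treated alike is not stated there. The second is called remaining tissue here, because its treatment label names tissue without mitochondria, whereas its titles and a legend of the study name total muscle, and which of the 2 it was is not settled. The labels do not say whether the libraries of a group came from separate animals, so the p-values measure only the spread between these libraries, which may be technical. Age, sex and the muscle taken were not given in the sources used here.

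Matricellular proteins are secreted into the extracellular matrix, where they bind structural proteins, growth factors and cell surface receptors rather than forming the main load-bearing fibres. In muscle such proteins are made largely by fibroblasts of the connective tissue around the fibres and by tenocytes, the cells of tendon. All members except Tnmd code for secreted proteins, which are made by ribosomes at the endoplasmic reticulum and enter it by a signal sequence at their start, while tenomodulin, the product of Tnmd, is a membrane protein of tenocytes.

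The start of the coding sequence, which encodes this signal in secreted proteins, is shown for the 4 members with most reads in isolated mitochondria (Tnxb, Fn1, Sparc and Fbn1) and, for comparison, for Thbs4, which is secreted too, and Tnmd. The lines give the first 75 bases from the start codon, 5′ to 3′, of the principal transcript in GENCODE M21 (mouse genome build GRCm38). Capitals mark codons for leucine (CTN, TTA and TTG in frame), an amino acid that is frequent in the core of signal sequences.
Tnxb (chromosome 17, 34670535 to 34670609, plus strand): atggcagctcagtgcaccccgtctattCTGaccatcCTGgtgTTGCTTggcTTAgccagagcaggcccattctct
Fn1 (chromosome 1, 71652908 to 71652982, minus strand): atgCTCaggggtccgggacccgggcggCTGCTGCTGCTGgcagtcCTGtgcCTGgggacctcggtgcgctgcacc
Fbn1 (chromosome 2, 125505529 to 125505603, minus strand): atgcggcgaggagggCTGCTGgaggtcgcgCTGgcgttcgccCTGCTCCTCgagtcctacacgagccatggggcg
Sparc (chromosome 11, 55409928 to 55409984 and 55407262 to 55407279, minus strand): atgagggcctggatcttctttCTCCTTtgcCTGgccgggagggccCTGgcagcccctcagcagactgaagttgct
Thbs4 (chromosome 13, 92794599 to 92794673, minus strand): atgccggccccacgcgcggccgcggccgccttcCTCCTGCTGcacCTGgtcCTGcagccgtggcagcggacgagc
Tnmd (chromosome X, 133851207 to 133851254 and 133851422 to 133851448, plus strand): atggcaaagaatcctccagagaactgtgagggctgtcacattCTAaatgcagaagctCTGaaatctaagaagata

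Among the 24 codons after the start codon, leucine codons numbered 5 in Tnxb, 7 in Fn1, 6 in Fbn1, 4 in Sparc and 5 in Thbs4, against 2 in Tnmd. At least 5 were present in 7 of the 10 members and in 18.7% of 12710 nuclear protein-coding genes of the table, whose median was 2. This count is a property of the letters and was used neither to choose the members nor to test them.

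Depth differed strongly between the groups. Isolated mitochondria held 42749263 and 35306106 assigned reads in replicates 1 and 2, of which 95.3% and 94.1% fell on the 37 mitochondrially encoded genes. Only 90821 and 156292 reads were left for nuclear protein-coding genes, against an estimated 10815014 and 10592654 in the 2 libraries of remaining tissue. The deposited values, called normalized counts here, were scaled to each library's median gene, so that 1 read stood for 9.05 and 5.06 normalized counts in isolated mitochondria and for an estimated 0.142 in remaining tissue. Of the 13 mitochondrially encoded mRNAs 13 were higher in isolated mitochondria, with a median log2 fold change of 8.78 in the fit described next. The myofibre markers fixed for this comparison (Acta1, Ckm, Mylpf, Tnnt3, Myh4, Ttn, Des and Atp2a1) were present in every library, with a summed level of 526423 and 509161 normalized counts in remaining tissue and 64193 and 55538 in isolated mitochondria.

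To see which members differed between the fractions, values were compared on the log2(normalized count + 1) scale with limma for the 6916 genes that averaged 20 normalized counts or more. Fn1 and Tnxb were higher in isolated mitochondria at an adjusted p under 0.05, and no member was lower. This was 2 of the 6 members tested, whereas 7.32% of all genes tested were higher, 9.30% were lower and 16.6% were called in either direction. The median log2 fold change of the 6 was 1.99, and that of every gene tested was -0.44. The other 4 members (Postn, Tnmd, Comp and Chad) had a mean under 20 and were not tested. With them included, the median of all 10 members was 0.79, and that of all 16472 genes was -0.68. None of the 6 entered the test through a high value in isolated mitochondria alone, since each had at least 79 normalized counts in both libraries of remaining tissue.

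The values of each library were also compared without a test. Normalized counts in both libraries of isolated mitochondria exceeded those in both libraries of remaining tissue for 5 members (Tnxb, Fn1, Fbn1, Sparc and Tnmd), were below them for Chad and overlapped for the other 4. Of all genes in the table, 18.4% were higher without overlap and 43.1% lower, 61.4% in either direction. Of the 6 tested members 4 were higher without overlap, against 25.5% of all genes tested, with 69.1% in either direction.

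**Figure D1:**
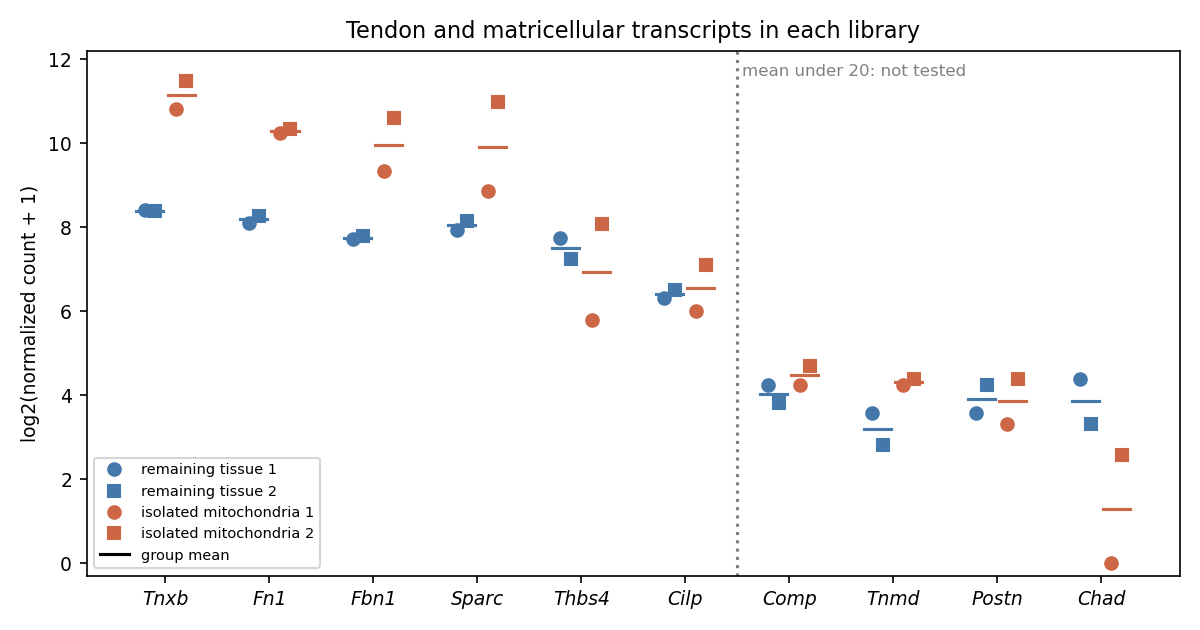
Level of each member as log2(normalized count + 1) in the 4 libraries (blue, remaining tissue; orange, isolated mitochondria; circles, replicate 1; squares, replicate 2) with the group mean as a line. The orange points of Tnxb, Fn1, Fbn1 and Sparc lie above the blue points, those of Thbs4 and Cilp spread around them, and members right of the dotted line had a mean under 20.

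Tnxb codes for tenascin-X, a large matrix glycoprotein that binds collagen fibrils and whose loss loosens connective tissue. Remaining tissue had 339 normalized counts of it in replicate 1 and 332 in replicate 2. Isolated mitochondria had 1792 in replicate 1 (198 reads) and 2874 in replicate 2 (568 reads). Both mitochondrial libraries were high and the groups were far apart. In limma this was a log2 difference of 2.75 with a standard error (SE) of 0.28 and an adjusted p of 0.0152, and 5.57% of all genes tested had a larger one. The gene lies on chromosome 17 from 34660457 to 34719815 on the plus strand in the deposited table (GENCODE M21 starts it at 34670535), with a principal transcript of 12209 nt in 41 exons. Part of that transcript, 1090 nt, matched Tnxa at 97.6% identity, and reads that align to several places had been left out, so that reads of that part may be missing from both genes. Tnxa itself had 8 and 6 normalized counts in remaining tissue and 9 and 20 in isolated mitochondria.

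Fn1 codes for fibronectin, which links cell surface integrins to collagen and other matrix proteins. Its normalized counts were 275 and 306 in remaining tissue and 1203 and 1295 in isolated mitochondria, or 133 and 256 reads. Of the 4 abundant members it had the closest mitochondrial replicates, with a ratio of 1.08 between replicates 2 and 1. The difference was 2.10 on the log2 scale (SE 0.17), with an adjusted p of 0.0113 in limma. Fn1 spans 71585520 to 71653200 on the minus strand of chromosome 1, with a principal transcript of 8315 nt, and overlaps the antisense gene Apol7d on the other strand, which had 1 and 2 normalized counts in remaining tissue and 54 and 5 in isolated mitochondria.

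Fbn1 codes for fibrillin-1, the main protein of the microfibrils on which elastic fibres form. It had 209 and 220 normalized counts in remaining tissue and 642 and 1543 in isolated mitochondria, or 71 and 305 reads. The groups did not overlap, although the mitochondrial replicates differed by a factor of 2.40. The log2 fold change of 2.21 (SE 0.47) had an adjusted p of 0.0506 in limma and so missed the threshold. The adjusted p lay between 4.67e-06 and 0.0937 over 17 alternatives, and the gene passed as higher in 11 of them. These include the fits without 1 library, which leave a lone library in its group and drop that group's spread. Passing those fits is therefore no sign that the result is robust. The log2 fold change was 2.84 without isolated mitochondria replicate 1 and 1.58 without replicate 2. Fbn1 (chromosome 2, 125300594 to 125507993, minus strand) has a principal transcript of 11971 nt in 65 exons. A stretch of 2442 nt of it is also part of Gm9913 on the opposite strand. The strand setting of the counting was not given in the sources used here, and without it reads in that stretch could not be assigned. Gm9913 had 1 and 0 normalized counts in remaining tissue and 0 and 30 in isolated mitochondria.

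Sparc codes for osteonectin, a collagen-binding protein secreted by fibroblasts and many other cells. It had 243 and 283 normalized counts in remaining tissue and 461 and 2019 in isolated mitochondria, or 51 and 399 reads. The groups did not overlap, but replicate 2 of isolated mitochondria was 4.38 times replicate 1. The difference was 1.88 on the log2 scale (SE 0.76) with an adjusted p of 0.161 in limma. It was 0.81 without isolated mitochondria replicate 2 and 2.94 without replicate 1. Sparc passed the threshold as higher in 6 of 17 alternatives, some of them fits without 1 library. The adjusted p values ranged from 0.000165 to 0.284 over all 17. Sparc (chromosome 11, 55394500 to 55423183, minus strand) overlaps 0 other genes and has a principal transcript of 2300 nt.

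**Figure D2:**
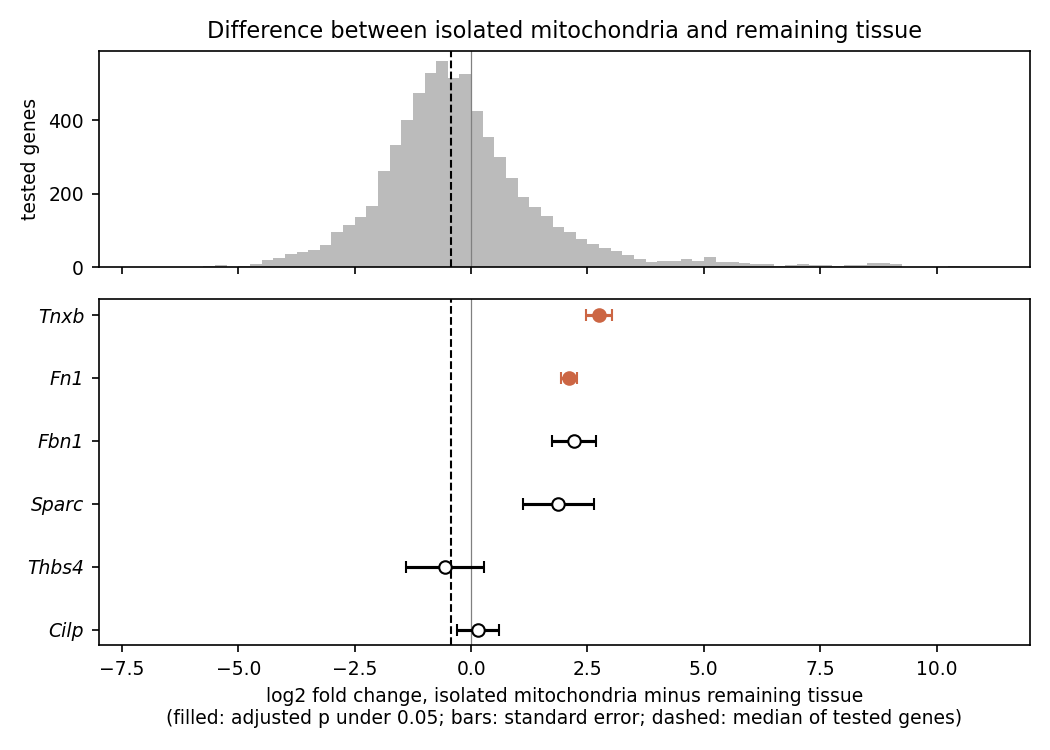
Top, distribution of the log2 fold change (isolated mitochondria minus remaining tissue) over the 6916 genes tested. Bottom, the 6 members tested with their standard errors, where the filled points of Tnxb (2.75) and Fn1 (2.10) had an adjusted p under 0.05 and the dashed line is the median of all genes tested (-0.44).

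Thbs4 and Cilp stayed near the bulk of the genes. Thbs4 codes for thrombospondin-4, a calcium-binding protein of tendon and of the junction between muscle and tendon. It had 212 and 151 normalized counts in remaining tissue and 54 and 268 in isolated mitochondria, or 6 and 53 reads, so that the tissue values lay between the mitochondrial ones. The log2 difference of -0.56 (SE 0.84), with an adjusted p of 0.646 in limma, had no stable sign, since it was 0.58 without isolated mitochondria replicate 1 and -1.71 without replicate 2. Thbs4 occupies 92751590 to 92794818 of chromosome 13 (minus strand). Cilp, which codes for a matrix protein first known from the intermediate layer of cartilage, had 79 and 89 normalized counts in remaining tissue and 63 and 137 in isolated mitochondria, or 7 and 27 reads. Here too the tissue values lay between the mitochondrial ones, with a log2 difference of 0.15 (SE 0.45) and an adjusted p of 0.827 in limma, which was -0.41 without isolated mitochondria replicate 2 and 0.70 without replicate 1. Cilp occupies 65265180 to 65280605 of chromosome 9 (plus strand).

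The remaining 4 members were rare in both fractions. Tnmd, the tenocyte membrane protein on chromosome X (133850980 to 133865577, plus strand), had 11 and 6 normalized counts in remaining tissue and 18 and 20 in isolated mitochondria, which were only 2 and 4 reads. Comp codes for cartilage oligomeric matrix protein, a thrombospondin that is abundant in tendon (chromosome 8, 70373558 to 70382066, plus strand), and had 18 and 13 normalized counts in remaining tissue and 18 and 25 in isolated mitochondria, or 2 and 5 reads. Postn codes for periostin, a collagen-associated protein of tissues under load (chromosome 3, 54361109 to 54391037, plus strand), and had 11 and 18 against 9 and 20 normalized counts, the latter 1 and 4 reads. With 1 to 5 reads in each mitochondrial library, this depth could not settle whether these members differed.

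Chad codes for chondroadherin, a leucine-rich protein of cartilage and tendon that binds cells and collagen. It had 20 and 9 normalized counts in remaining tissue and 0 and 5 in isolated mitochondria, or 0 and 1 reads. Although the groups did not overlap, 0 of 90821 nuclear protein-coding reads in isolated mitochondria replicate 1 allows up to 33.0 ppm (reads per 1000000 nuclear protein-coding reads), and 1 read in replicate 2 stood for 6.33 ppm (95% Wilson interval 1.13 to 36.2). The shares in remaining tissue, 13.0 (11.1 to 15.4) and 5.99 (4.65 to 7.61) ppm, lie within these limits, so that a lower share was not shown. Chad lies on chromosome 11 from 94565047 to 94569127 on the plus strand and overlaps Acsf2 on the other strand. When genes with a mean under 20 were kept, the adjusted p (limma) was 0.207 for Tnmd, 0.483 for Comp, 0.964 for Postn and 0.278 for Chad.

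The members were next expressed as shares of the reads of nuclear protein-coding genes of the same library, a measure that does not depend on how libraries were scaled to each other. Together the 10 members held 0.0924% (95% Wilson interval 0.0906 to 0.0942) and 0.0950% (0.0931 to 0.0968) of these reads in replicates 1 and 2 of remaining tissue. In isolated mitochondria they held 0.519% (0.474 to 0.567) in replicate 1 and 1.04% (0.989 to 1.09) in replicate 2. The mean share was 0.0937% ± 0.00184 in the tissue and 0.779% ± 0.368 in the mitochondria (SD, n = 2 each), which is 8.32 times as high, and both mitochondrial libraries were above both tissue libraries. Without isolated mitochondria replicate 2 the ratio was 5.54, and without replicate 1 it was 11.1. When libraries were scaled to the same totals, the median log2 fold change of all 6916 genes tested was 0.45. Of these genes 1128 were then higher and 172 lower in limma, so a rise on this measure was not particular to the members. No test was run, because 2 libraries against 2 allow no exact permutation p below 0.333. The intervals cover counting error only, as reads counted without molecular identifiers may copy 1 molecule, and those of remaining tissue rest on estimated reads.

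**Figure D3:**
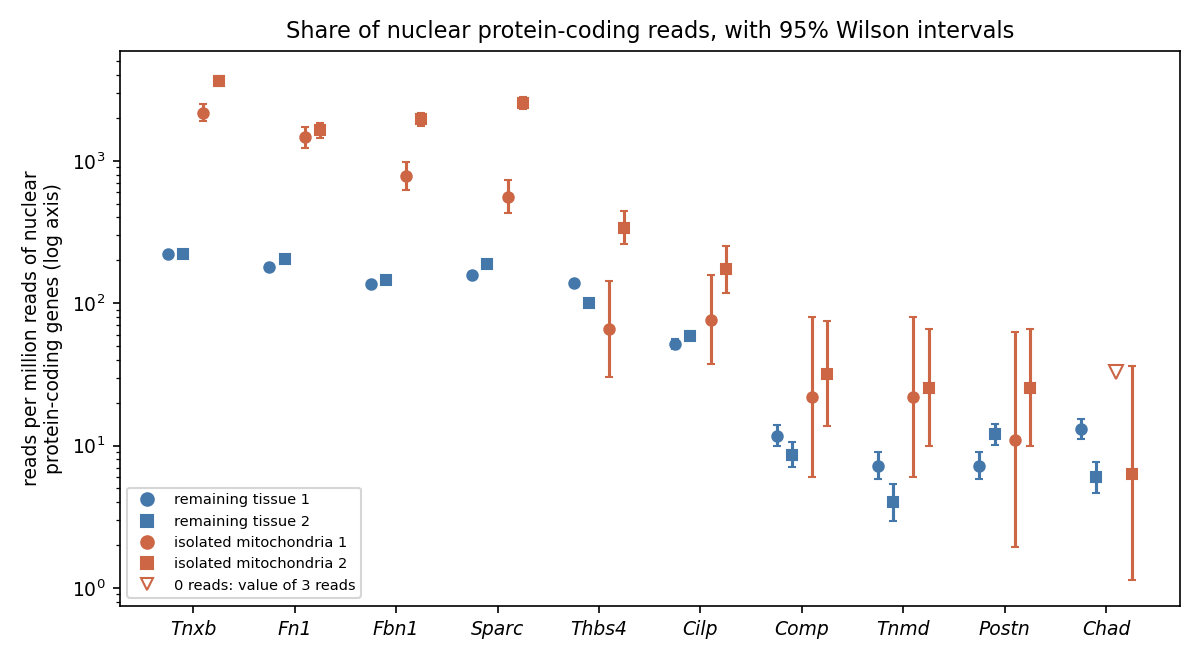
Reads of each member per 1000000 reads (ppm) of nuclear protein-coding genes (log axis) in the 4 libraries, with 95% Wilson intervals that cover counting error only. The open triangle marks the level of 3 reads for Chad, which had 0 reads in isolated mitochondria replicate 1, and intervals of Comp, Tnmd, Postn and Chad in isolated mitochondria are wide because they rest on at most 5 reads.

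For single members, Tnxb had 221 ppm in each library of remaining tissue and 2183 (1897 to 2505) and 3639 (3348 to 3945) in isolated mitochondria. Fn1 had 179 and 204 ppm in remaining tissue and 1466 (1236 to 1735) and 1640 (1449 to 1851) in isolated mitochondria, where the intervals of the replicates overlapped. Sparc had 158 and 188 against 562 (427 to 738) and 2557 (2315 to 2816). The mitochondrial replicates of Sparc thus differed beyond counting error. Fbn1 showed the same kind of spread, with 136 and 146 against 782 (620 to 986) and 1954 (1745 to 2183). For Thbs4 the interval of isolated mitochondria replicate 1 (65.8, 30.3 to 144) held the tissue values of 138 and 100.5, and replicate 2 (339, 259 to 443) lay above them.

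The size of the share depended on the reference. Of the reads of all nuclear genes the members held 0.0823% ± 0.000602 in the tissue and 0.0507% ± 0.0387 in the mitochondria (SD, n = 2 each), which is 0.616 times as high, and both mitochondrial libraries (0.0233% and 0.0781%) were below both tissue libraries (0.0819% and 0.0827%). Isolated mitochondria had 2019848 and 2077821 reads of nuclear genes, of which only 90821 and 156292 fell on protein-coding genes. In remaining tissue these were an estimated 12200258 and 12159836, with 10815014 and 10592654 on protein-coding genes. As a share of all reads the members held 0.0647% ± 0.00151 in the tissue and 0.00285% ± 0.00247 in the mitochondria, a ratio of 0.0440. The members thus held a larger share of the nuclear protein-coding reads in isolated mitochondria and a smaller share of the reads of all genes.

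Levels of different members were compared per length of the principal transcript. In remaining tissue Sparc came first with 114 ± 12.3 normalized counts per kb (SD, n = 2), followed by Thbs4 (56.8 ± 13.5), Fn1 (34.9 ± 2.64), Tnxb (27.5 ± 0.405), Cilp (20.2 ± 1.70) and Fbn1 (17.9 ± 0.650). Each of these 6 was separated from the next by ranges that did not overlap. Chad (8.63), Comp (6.42), Tnmd (6.28) and Postn (4.55) followed, and each of these overlapped its neighbour. In isolated mitochondria the order began with Sparc (539 ± 479), Tnxb (191 ± 62.7), Fn1 (150.2 ± 7.82) and Fbn1 (91.3 ± 53.2), of which only Fn1 and Fbn1 did not overlap as neighbours. Thbs4 followed with 50.3 ± 47.3 and Cilp with 24.1 ± 12.6 normalized counts per kb. Thbs4 thus had rank 2 in remaining tissue and rank 5 in isolated mitochondria, although its mitochondrial range overlapped those of Fbn1 and Cilp.

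All 10 members had a higher normalized count in replicate 2 of isolated mitochondria than in replicate 1, as had 55.9% of all genes tested. The ratio ranged from 1.08 for Fn1 to 4.96 for Thbs4 among the members above 0 in both libraries. As shares of nuclear protein-coding reads, the intervals of the 2 libraries were apart for Tnxb, Fbn1, Sparc and Thbs4. They overlapped for Fn1, Cilp and the members not tested. The part of these replicate differences in the results was not tested.

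Transcript length and the kind of protein were set beside the fold changes as descriptions. The fragmentation time had been adjusted for mitochondrial samples to the size of their RNA, a step that coincides with the groups. Among the nuclear protein-coding genes tested outside the members, the 497 with a principal transcript of at least 8000 nt had a median log2 fold change of -0.90, and 5.03% of them were higher and 18.7% lower. The 1362 with transcripts under 2000 nt had a median of -0.13 with 9.47% higher and 6.02% lower. The transcripts of Tnxb, Fbn1 and Fn1 are over 8000 nt, and the part of length or fragmentation in their values was not tested. Of 116 genes outside the members that the table's gene ontology terms place in the proteinaceous extracellular matrix, 42.2% were higher and 2.59% lower, with a median of 1.81, and these terms are missing for some genes, Fbn1 among them. The 1121 genes with at least 5 leucine codons among the 24 after the start codon had a median of 0.03 with 15.1% higher, whereas the 5285 genes with fewer had -0.53 and 4.71%.

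Other genes of the matrix were described by 3 lists. Of 54 genes of these lists in the table, 39 were tested, 16 were higher in isolated mitochondria (41.0%, limma), 0 were lower and 23 did not pass the threshold. Of the 39, 8 averaged under 20 normalized counts in remaining tissue and were tested only because of their level in isolated mitochondria (2 of them higher), and among the other 31 genes 14 were higher. The fold change was positive in 34 and negative in 5, with a median log2 fold change of 1.82, and replicate 2 of isolated mitochondria was above replicate 1 in 26. Without remaining tissue replicate 1 or replicate 2 the count of higher genes was 8, without isolated mitochondria replicate 1 it was 27 and without replicate 2 it was 25. The 0 lower genes held in edgeR and DESeq2. By contrast, Ccn1 was lower with a replicate block, on 3 and 1 reads in isolated mitochondria. Without isolated mitochondria replicate 1 its log2 fold change was -3.34, from 1 read. Without replicate 2 the log2 fold change was -4.46 for Tnc, from 0 reads, and -1.29 for Itga7, from 5 reads (all named after their values were seen). The replicate 2 left out held 76 normalized counts of Tnc, above the 22 and 20 in remaining tissue, so a lower level of Tnc was not shown.

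**Figure D4:**
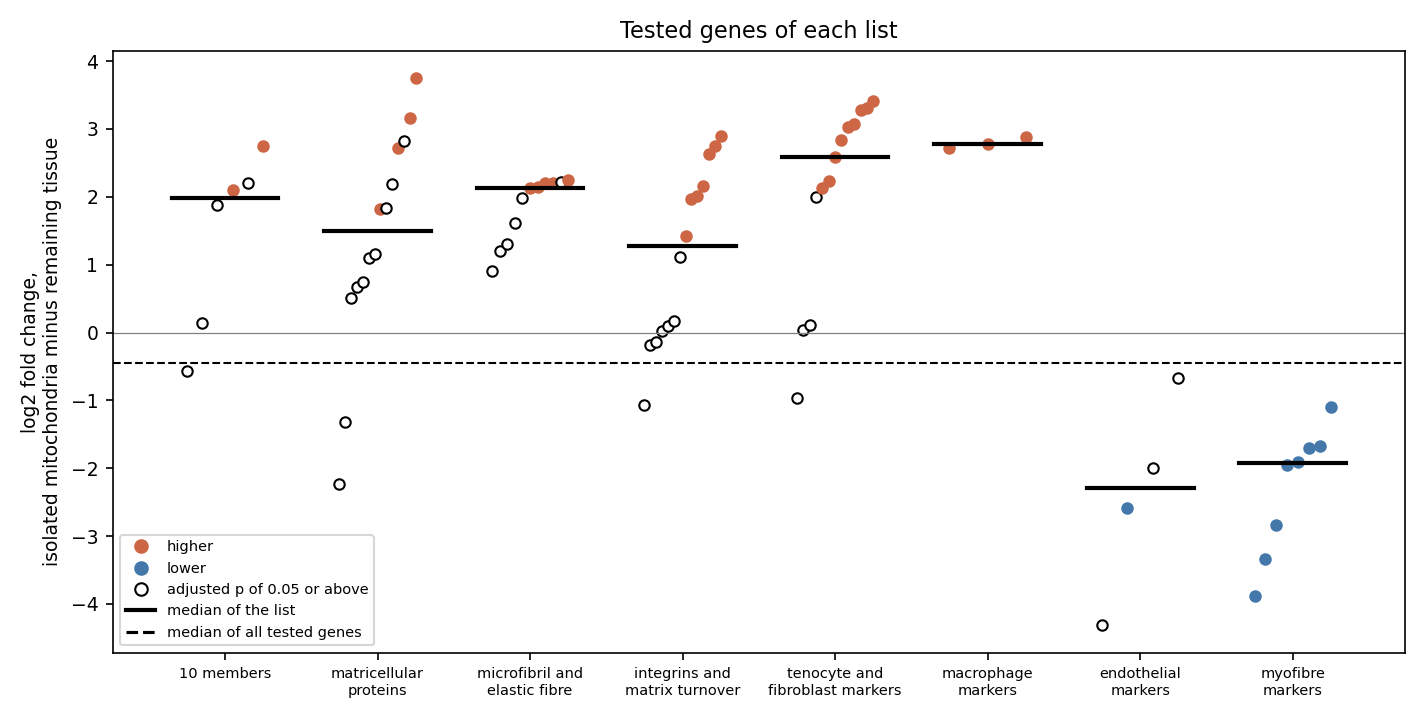
Log2 fold change of each tested gene of the lists, with filled points for genes past the threshold (orange, higher; blue, lower), a bar for the median of the list and a dashed line for the median of all genes tested. Points of the matrix lists lie mostly above 0 with the deposited scaling (all 39 were lower after scaling by totals of all genes), and all 8 myofibre markers lie below it.

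Other matricellular proteins were measured as well. Of 20 genes with a row, 14 were tested and 4 were higher, with a median log2 fold change of 1.49. The higher genes were Vtn (3.75, adjusted p 0.0231, limma), which codes for the adhesive plasma and matrix protein vitronectin, Ecm1 (3.16, adjusted p 0.00824), Smoc2 (2.73, adjusted p 0.0148), a relative of Sparc, and Fstl1 (1.82, adjusted p 0.0335). Smoc2 went from 141 and 143 normalized counts to 760 and 1174. The thrombospondins Thbs1 (0.51), Thbs2 (0.67) and Thbs3 (1.84) missed the threshold in limma (adjusted p 0.479, 0.134 and 0.185), as did Sparcl1, the closest relative of Sparc (0.74, adjusted p 0.0686). Thbs3 had 2 and 10 reads in isolated mitochondria.

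Of the microfibril and elastic fibre proteins, 11 of 19 were tested and 5 were higher, with a median log2 fold change of 2.13. Examples were Fbln2, a fibulin that binds fibrillin and fibronectin (2.25, adjusted p 0.0151, limma), Emilin2 (2.20, adjusted p 0.0366), which had 16 and 18 normalized counts in remaining tissue and was tested only through isolated mitochondria, and Ltbp4 and Ltbp1, which hold latent TGF-beta in microfibrils (2.20 and 2.15, adjusted p 0.0377 and 0.0205). Ltbp4 had 166 and 164 normalized counts in remaining tissue and 534 and 1088 in isolated mitochondria. Of the 11, 4 were tested only through isolated mitochondria, and 4 of the other 7 were higher.

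Receptors and enzymes of the matrix were divided. Of 15 genes 14 were tested and 7 were higher, with a median of 1.27. Those higher included Pcolce, an enhancer of procollagen processing (2.90, adjusted p 0.0298, limma), the procollagen protease gene Adamts2 (2.75, adjusted p 0.0195), the gelatinase gene Mmp2 (2.63, adjusted p 0.0226) and the collagen receptor subunit Itga11 (2.16, adjusted p 0.0390), which had 17 and 12 normalized counts in remaining tissue and was tested only through isolated mitochondria. The subunits of integrins that bind fibronectin, Itga5 (0.02), Itgb1 (0.10) and Itgav (-0.19), missed the threshold in limma (adjusted p 0.983, 0.712 and 0.604). Itgb1 had 265 and 271 normalized counts in remaining tissue and 290 and 283 in isolated mitochondria, which did not overlap but were close.

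Markers of cells that could hold these transcripts moved in different directions. Of 13 tested genes of tenocytes and connective tissue fibroblasts, 9 were higher, with a median log2 fold change of 2.58 and summed levels of 1894 to 2032 normalized counts in remaining tissue and 10822 to 19827 in isolated mitochondria. Of these 13, 2 were tested only through isolated mitochondria, and 8 of the other 11 were higher. The tenocyte gene Scx was one of the former, with 7 and 5 normalized counts in remaining tissue and 90 and 51 in isolated mitochondria (10 reads in each library). Mkx was at 0 in both mitochondrial libraries but had only 2 and 1 normalized counts in remaining tissue, too few to show a difference. Col1a1 (3.03, adjusted p 0.0292), Col3a1 (3.42, adjusted p 0.0197) and Dcn (2.58, adjusted p 0.00780) were among the higher genes. The 4 that missed the threshold were Egr1 (-0.97), Tcf4 (0.04), Pdgfrb (0.11) and Fap (1.99). Their adjusted p values in limma were 0.545, 0.976, 0.881 and 0.0625. The macrophage markers were higher in 3 of 3 tested, of which Adgre1 (6 and 6 normalized counts in the tissue, 36 and 71 in the mitochondria) was tested only through isolated mitochondria, with sums of 71 to 86 in remaining tissue and 500 to 524 in isolated mitochondria. Endothelial markers were higher in 0 and lower in 1 of 4 tested, with sums of 424 to 425 and 72 to 126 (8 and 25 reads in isolated mitochondria). Emcn was at 0 in both mitochondrial libraries. Its 8 and 12 normalized counts in remaining tissue were below the level of 3 reads in isolated mitochondria (27.1 and 15.2), so a lower level was not shown. The 8 myofibre markers were all lower, with a median of -1.93. The adipocyte markers passed in 0 of 2 tested (157 to 316 and 135 to 181). Cartilage and bone markers were tested in 0 of 2 in the table (8 to 12 and 0 to 20). Ibsp was at 0 in isolated mitochondria and had only 0 and 2 normalized counts in remaining tissue. The groups are fractions of muscle, so neither the number of cells of a type nor the RNA per cell can be read from these values. The part of fibroblast or macrophage RNA in the values of the members was not tested.

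The direction of a fold change depended on the scaling, and the position of the members relative to other genes was therefore compared. When libraries were scaled to the total of all genes, the median of all genes tested moved to -6.90 and all 6 tested members were lower, with log2 fold changes from -7.27 for Thbs4 to -4.14 for Tnxb. Relative to the median of all genes under the same setting, Tnxb lay 2.77 to 3.44 above it over 18 settings, Fn1 2.12 to 2.78, Fbn1 2.01 to 3.12 and Sparc 1.24 to 3.22. Cilp lay 0.02 to 0.98 above the median, and Thbs4 from -1.28 to 0.86. Of 17 alternatives, 16 called Fn1 and Tnxb higher, and the other, the total of all genes, called them lower. In edgeR with TMM normalization, run on recovered and estimated reads, 16.0% of all genes were higher (28.6% called in either direction). Among the members Tnxb (3.04, adjusted p 0.00228), Fn1 (2.35, adjusted p 0.00230), Fbn1 (2.60, adjusted p 0.00965) and Sparc (2.48, adjusted p 0.0340) were higher in edgeR. DESeq2 called the same 4 members as higher, among 20.3% of all genes (33.0% called in either direction).

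**Figure D5:**
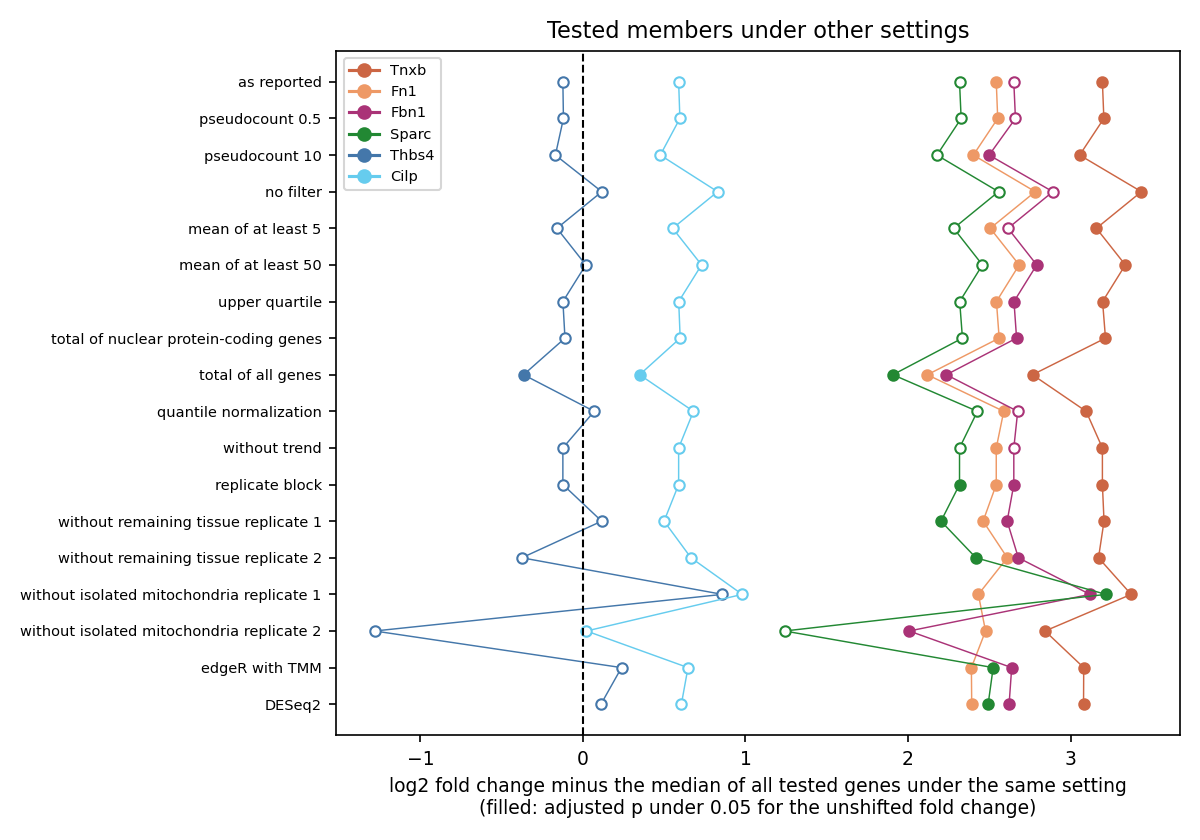
Log2 fold change of the 6 tested members minus the median of all genes tested under the same setting, for the values as reported and 17 alternatives, with filled points where the adjusted p of the unshifted fold change was under 0.05 (for the total of all genes, as lower). Tnxb, Fn1, Fbn1 and Sparc lie above the median in every setting, and Thbs4 lies on either side of it.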

How the data were processed

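According to its methods, the study trimmed reads (Trimmomatic), aligned them to GRCm38 (STAR), counted reads per gene over exons, leaving out multi-gene and multi-mapping reads (featureCounts), and compared groups with DESeq2. The deposited values are a signal the authors made by dividing gene counts by a size factor per library and rounding to whole numbers. In isolated mitochondria 99.95% and 99.97% of values under 2000 were whole multiples of 1 step within 0.5, so that reads were recovered. Reads of remaining tissue were estimated with a common step from the medians of ratios over 8993 genes.

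Genes with a mean of at least 20 were tested on log2(value + 1) with limma 3.58.1 (trend, two-sided) in R 4.3.3, Benjamini-Hochberg over the 6916 genes, threshold 0.05, without covariates. Fold changes on this scale can understate those of low genes, but a value of 0 in a mitochondrial library can also make them too negative. Tnc had -1.32, with 22 and 20 normalized counts in remaining tissue and 0 and 76 in isolated mitochondria. The members, lists and tests were chosen with earlier results of these data known. Named beside the members were up to 4 called genes per matrix list with the largest fold change, and further list genes named after their values were seen. The script was checked on simulated data. Alternatives used edgeR 4.0.16 and DESeq2 1.42.0. Transcripts were those of GENCODE M21, which held 16457 of the 16472 identifiers, and were compared with BLAST 2.17.0 (at least 50 nt, 95% identity). Intervals are 95% Wilson intervals and the floor was 3 reads. The result of 1 further marker list is not reported here.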

Additional observations from a re-analysis of the deposited data

How the results depend on the processing

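Of the members, 2 were higher as reported, and 4 with a replicate block, in edgeR and in DESeq2, and 0 after scaling by totals of all genes, which gave 6 lower. Leaving out 1 library gave 3 to 4 higher and 0 lower. Over all genes, 506 were higher and 643 lower. These counts were 283 and 399 at a mean of at least 5, 1128 and 172 after scaling by nuclear protein-coding totals, and 38 and 6694 after scaling by totals of all genes. Genes higher numbered 1106 in edgeR and 1404 in DESeq2. Genes lower numbered 3026 without a filter, 384 after quantile normalization, 374 without trend and 1144 with the replicate block, which called 630 higher. Leaving out 1 library gave 296 to 1724 higher and 176 to 3198 lower. In the matrix lists 16 genes were higher as reported, 7 at a mean of at least 5, 25 when scaled to nuclear protein-coding genes, 0 (with 39 lower) when scaled to all genes, 25 in edgeR and 29 in DESeq2. With the replicate block 1 was lower. Leaving out 1 library gave 8 to 27 higher and 0 to 2 lower. Higher genes made up 44.0% of calls as reported, 86.8% when scaled to nuclear protein-coding genes, 0.564% when scaled to all genes and 55.1% after quantile normalization. Without a filter they made up 18.0%, and in DESeq2 61.6%, in edgeR 55.9%.

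Scaling by totals of all genes turned the log2 fold changes of Sparc (-5.00), Fn1 (-4.78), Fbn1 (-4.67), Tnxb (-4.14) and Cilp (-6.55), since it moved the median of all genes to -6.90. Thbs4 turned positive when scaled to nuclear protein-coding genes (0.34), in edgeR (0.20) and in DESeq2 (0.12). Leaving out 1 library moved Thbs4 between -1.71 and 0.58 and Cilp between -0.41 and 0.70. The ratio of the members' share was 8.32 for nuclear protein-coding reads, 0.616 for all nuclear reads and 0.0440 for all reads, and leaving out 1 library moved the first between 5.54 and 11.1. The replicate numbers of the labels do not say that libraries were paired. Deviations from the group means correlated with r = 0.14 over 6916 genes, which 2 pairs cannot settle. With the replicate number as a block, Fbn1 (adjusted p 6.75e-06, limma) and Sparc (0.000165) joined Fn1 and Tnxb. That fit assigns differences between replicates to a block that the labels do not give, and it leaves less spread per gene to judge by. Its small adjusted p values are therefore no sign that the result is robust. The fits without 1 library assume that the lone library varies like the others. Causes other than the scaling were not tested. Depth limits Postn, Tnmd, Comp and Chad, with at most 5 reads in a mitochondrial library.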
